A study of Mus musculus with 6 samples.

Results

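The nuclear genes for the subunits of the mitochondrial respiratory chain and ATP synthase were examined in mouse macrophages that overexpress angiotensin-converting enzyme (ACE), a peptidase that makes angiotensin II. Members were taken by symbol alone, as gene rows whose symbol began with Nduf and a subunit letter and number, was Sdha, Sdhb, Sdhc or Sdhd, began with Uqcr, Cox4 to Cox8 or Atp5, or was Cyc1 or Cycs, with pseudogene symbols left out. In all, 86 of the 25509 gene rows qualified. By symbol, 37 of these were counted with complex I, 4 with complex II, 9 with complex III, 18 with complex IV and 17 with complex V. The remaining 1 (Cycs) encodes cytochrome c. A symbol need not name the complex: Ndufa4 can be counted with complex IV, and Atp5s and Atp5sl are not structural subunits of ATP synthase. The rule used symbols and no measured values.

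The 2 groups were wild-type mice (WT, n = 3) and ACE-overexpressing mice (named Tg-ACE or JWT in the labels, n = 3). Both are of the C57BL/6 strain, and neither the age of the mice nor the promoter of the transgene is given in the sources used here. In both groups macrophages were drawn into the peritoneal cavity by thioglycollate, an irritant, harvested on day 4, separated over Percoll (a density medium) and retained if they adhered within 2 h in culture. Each library is poly-A RNA sequenced with single 75-base reads and counted per gene. In the sample descriptions replicate 1 of both groups is marked Exp-156, and the other replicates are marked Exp-156b. What the codes stand for is not given, so they are used as labels only, and nothing says that the replicates were separate mice, so p-values measure the spread between these libraries.

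Libraries held between 24294244 and 28120393 counts, and the 86 genes together took between 0.645% and 0.788% of them. Ace itself stood at 16.7, 7.6 and 11.6 CPM (counts scaled to a common library size) in the WT libraries and at 101, 25.6 and 31.8 in the Tg-ACE libraries, so every library followed its label. The 7 macrophage markers (among them Adgre1, Cd68, Lyz2 and Csf1r; 8 gene rows, as the symbol Itgam has 2) summed to between 17981 and 21913 CPM. Other markers differed by code. The sum of 5 neutrophil markers was 473 CPM (WT) and 147 CPM (Tg-ACE) for Exp-156, against 10.4 to 13.3 for Exp-156b, and that of 4 eosinophil markers was 222 and 88.1 against 8.66 to 18.4. Mast cell and basophil markers summed to 41.5 and 28.3 CPM against 5.64 to 10.8, dendritic cell markers to 27.9 and 25.1 against 4.5 to 9.13, T and NK cell markers to 9.04 and 6.47 against 0.699 to 1.74, and 6 mesothelial and fibroblast markers to 74.5 and 86.6 against 127 to 240.4. B cell markers ranged from 56.4 to 128 CPM with no such split. Xist, an RNA made in female cells, had at most 0.527 CPM under Exp-156 and at least 327 CPM under Exp-156b, and the immediate early gene Fos had at least 238 and at most 16.2. The parts of cell types, sex and early response in the results by code cannot be told apart from the code itself.

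Complexes I and II feed electrons from NADH and succinate into ubiquinone, complex III passes them to cytochrome c, complex IV hands them to oxygen, and complex V (ATP synthase) uses the resulting proton gradient to make ATP. Complex II is encoded wholly in the nucleus, while the other complexes combine nuclear subunits with subunits encoded in mitochondrial DNA. Macrophages shift between respiration and glycolysis as they are activated, and complex I and complex II are also sources of reactive oxygen species and of signals through succinate. Many of these nuclear genes are known targets of the transcription factors NRF1, GABPA (an ETS factor) and YY1.

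To show the regulatory sequence behind these genes, promoters from RefSeq (build GRCm38.p6, 250 bases before to 50 after the start site) were searched on both strands for an NRF1 core (CGCATGCG, which is its own reverse complement), an ETS core (CCGGAAG) and a YY1 motif (AAGATGGCG). The ETS and YY1 motifs can share the letters AAG where one follows the other. Of the 86 genes, 70 had an entry. The NRF1 core occurred in 10 of these (14.3%) against 2.07% of all 27025 genes with a promoter, the ETS core in 16 (22.9%) against 9.93%, and the YY1 motif in 8 (11.4%) against 1.64%. At least 1 motif stood in 28 of the 70 (40%) and in 12.8% of all genes. All members are protein-coding. Over the 17491 protein-coding genes with a promoter the shares were 2.77%, 12.9% and 2.14%, and 16.7% for at least 1 motif. Complex V held one in 8 of 16, complex I in 11 of 32, complex III in 3 of 5, complex II in 2 of 3 and complex IV in 3 of 13. Of the 25 matched genes that passed the test between codes (below), 10 held one (40%), as did 18 of the 42 that did not pass (42.9%). The NRF1 core occurred in 12% and 16.7% of these, the ETS core in 24% and 23.8% and the YY1 motif in 8% and 14.3%, and the difference between them was not tested. These are letter matches in fixed windows, not measured binding.

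Printed here are 6 promoters of genes on which later results turn, from 250 bases before the start site to 30 after it, 5′ to 3′ on the coding strand, in lower case with motif matches in capitals. Cycs (chr6:50566540-50566819, minus strand) has an NRF1 core beginning 61 bases before the start site, and Atp5g2 (chr15:102671018-102671297, minus strand) has one beginning 41 bases before it. Ndufs3 (chr2:90904692-90904971, minus strand), a core subunit of complex I, has an ETS core on each strand, beginning 27 bases before and 1 base after the start. Ndufa12 (chr10:94198785-94199064, plus strand), with the smallest p of all members between codes, has none of the 3. Cox7a2 (chr9:79759824-79760103, minus strand) and Cox7a1 (chr7:30183921-30184200, plus strand) are the widely expressed and the muscle isoform of the same complex IV subunit, and neither window holds a motif.
Cycs: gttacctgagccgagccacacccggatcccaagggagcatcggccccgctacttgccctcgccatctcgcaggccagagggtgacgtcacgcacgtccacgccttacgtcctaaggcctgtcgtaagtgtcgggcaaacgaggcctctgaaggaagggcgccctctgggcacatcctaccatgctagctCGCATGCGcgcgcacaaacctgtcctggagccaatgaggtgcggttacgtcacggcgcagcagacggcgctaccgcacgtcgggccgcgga
Atp5g2: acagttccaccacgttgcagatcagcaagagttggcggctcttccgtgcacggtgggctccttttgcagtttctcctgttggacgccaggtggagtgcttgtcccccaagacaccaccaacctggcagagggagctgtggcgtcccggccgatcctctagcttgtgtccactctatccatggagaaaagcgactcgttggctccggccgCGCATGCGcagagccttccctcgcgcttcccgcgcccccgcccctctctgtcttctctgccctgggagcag
Ndufs3: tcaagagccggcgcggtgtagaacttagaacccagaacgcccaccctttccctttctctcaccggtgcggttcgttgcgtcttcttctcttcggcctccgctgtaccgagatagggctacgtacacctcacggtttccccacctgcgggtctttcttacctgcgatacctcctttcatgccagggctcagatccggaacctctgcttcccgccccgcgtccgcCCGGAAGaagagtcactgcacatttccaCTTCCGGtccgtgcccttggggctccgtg
Ndufa12: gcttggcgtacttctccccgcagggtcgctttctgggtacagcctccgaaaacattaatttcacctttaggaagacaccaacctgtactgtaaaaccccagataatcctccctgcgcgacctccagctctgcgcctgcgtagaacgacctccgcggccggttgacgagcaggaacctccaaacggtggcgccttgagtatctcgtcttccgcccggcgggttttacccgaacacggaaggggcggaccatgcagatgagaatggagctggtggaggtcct
Cox7a2: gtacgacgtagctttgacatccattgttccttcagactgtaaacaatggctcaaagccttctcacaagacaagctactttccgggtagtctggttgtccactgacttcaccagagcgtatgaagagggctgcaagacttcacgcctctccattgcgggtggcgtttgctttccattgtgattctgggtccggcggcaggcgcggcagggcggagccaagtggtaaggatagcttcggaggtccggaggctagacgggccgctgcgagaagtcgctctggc
Cox7a1: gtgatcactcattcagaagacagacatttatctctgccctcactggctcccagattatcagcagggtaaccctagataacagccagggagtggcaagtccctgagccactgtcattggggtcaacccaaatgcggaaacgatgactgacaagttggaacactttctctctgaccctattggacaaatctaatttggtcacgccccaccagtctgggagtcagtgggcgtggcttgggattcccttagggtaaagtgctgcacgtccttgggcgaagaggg

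Levels between genes were compared as CPM per kilobase of transcript. Complex IV had the highest level of all members in Cox4i1, the largest nuclear subunit of cytochrome c oxidase, at 434 ± 67.6 CPM per kb (SD, n = 6). Atp5b, the catalytic beta subunit of ATP synthase, followed at 292 ± 17.6, then the complex IV subunit Cox8a at 265 ± 27.0 and the complex V subunits Atp5e at 236 ± 31.5 and Atp5l at 219 ± 27.6. From Atp5b downwards, neighbours in this order overlap within their SDs. Among tested genes the median level was 177 CPM per kb in complex IV, 130.5 in complex V, 80.4 in complex II, 79.8 in complex III and 64.5 in complex I. Within complex I levels ran from 20.6 for Ndufs4 to 152 for Ndufa1. Cycs stood at only 10.4 CPM per kb.

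**Figure D1:**
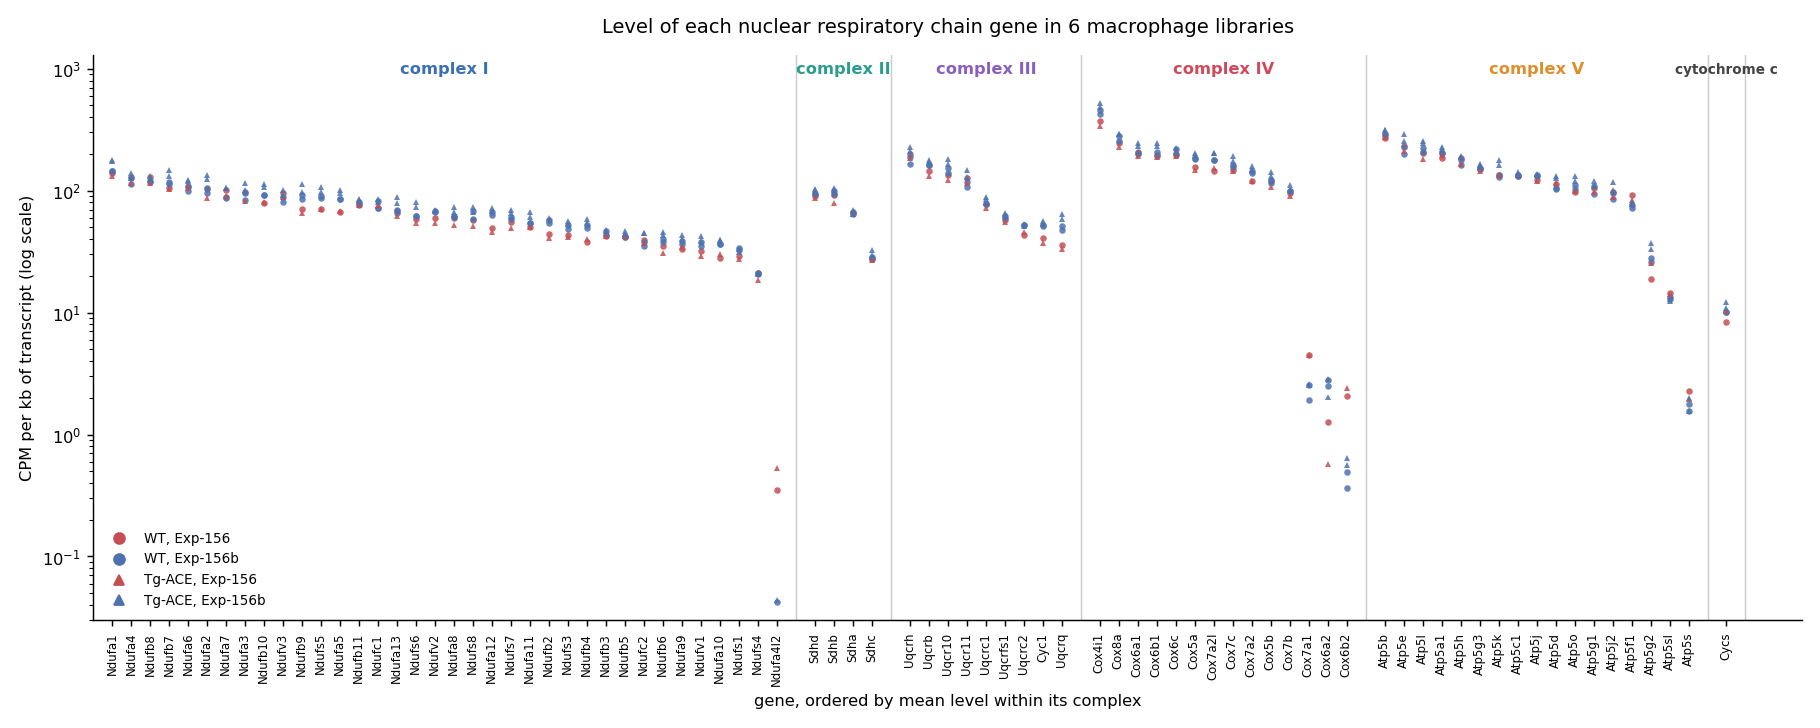
Level of each member with counts in CPM per kb of transcript (log axis) by complex, with 1 symbol per library (circles WT, triangles Tg-ACE, red Exp-156, blue Exp-156b). Most members lie between about 20.6 and 434 CPM per kb, while the muscle and testis isoforms of complex IV, Atp5s and Ndufa4l2 lie far below. A library with no count for a gene is not drawn, nor are the 4 genes at 0 in all libraries and 1 member not reported here.

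As shares of the summed level per kb, complex I took 31.2% ± 0.291 (SD, n = 6), complex V 27.3% ± 0.78, complex IV 26.8% ± 0.587, complex III 11.1% ± 0.144, complex II 3.46% ± 0.147 and cytochrome c 0.125% ± 0.0109. The share of complex V was 28% and 28.6% in the Exp-156 libraries and between 26.8% and 26.9% in the Exp-156b libraries. The share of complex IV was 26.1% in both Exp-156 libraries and between 27% and 27.4% in Exp-156b. Shares of both complexes thus separated the codes without overlap, and neither separated the genotypes.

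Subunits with tissue-specific isoforms were carried almost wholly by the widely expressed gene. Of the muscle isoforms, Cox8b had no count in any library, and Cox6a2 stood at 2.01 and Cox7a1 at 3.09 CPM per kb beside 214 for Cox6a1, 139 for Cox7a2 and 177 for Cox7a2l, a relative of the Cox7a subunits known for its role in supercomplexes. Muscle markers summed to between 0.0797 and 0.368 CPM, with Myl1 and Actc1 at 0. Cox4i2, Cox7b2 and Cox8c, known from lung or testis, also had no count, which at these depths allows up to 0.123 CPM (3 counts, counting error only). Cox6b2, the testis isoform of Cox6b1, had 22, 6 and 4 counts in the WT libraries and 30, 7 and 6 in the Tg-ACE libraries, with the higher values in Exp-156. Ndufa4l2, a relative of Ndufa4 known as a hypoxia target, had 8, 0 and 1 counts in WT and 14, 0 and 1 in Tg-ACE, so nearly all of its reads came from Exp-156. Its relative Ndufa4 had 125 CPM per kb, and Cox6b1 had 211. The c ring of ATP synthase, encoded by several genes for the same mature protein, was carried by Atp5g3 at 154 and Atp5g1 at 106 CPM per kb, with Atp5g2 at 28.1. Cox4i2, Cox6b2, Cox7b2, Cox8b, Cox8c and Ndufa4l2 did not pass the filter on low counts, which left 80 of the 86 genes (36, 4, 9, 13 and 17 in complexes I to V, and Cycs) among 12827 tested.

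No member passed the test between genotypes with the experiment code in the model (edgeR, adjusted p under 0.05), against 2 of 12827 genes tested (0.0156%), and DESeq2 called 0 members too. At an unadjusted p under 0.05 there were 6 members, all higher in Tg-ACE, or 7.5% against 6.48% of all genes: Atp5g2, Atp5d, Atp5k, Cycs, Ndufb10 and Cox7a2l. Differences leaned to one side but were small. Tg-ACE lay above WT in 73 of 80 members, with a median log2 fold change of 0.08, whereas 48.3% of all genes lay above 0 with a median of -0.01. Other sets leaned the same way. Above 0 were 60 of 77 mitochondrial ribosomal proteins (median 0.08), 65 of 80 cytosolic ones (0.04) and 10 of 13 chain genes encoded in mitochondrial DNA (0.07). Of all genes with transcripts under 800 bases, 68.1% lay above 0 (median 0.06). Medians by complex were 0.09 in complex I (33 of 36 above 0), 0.04 in II (3 of 4), 0.07 in III (9 of 9), 0.08 in IV (12 of 13) and 0.08 in V (15 of 17). They moved with single libraries. With WT replicate 1 or Tg-ACE replicate 1 left out, the code term takes up the other Exp-156 library. Both fits then give the genotype difference within Exp-156b (below) and are not separate results. Their medians were 0.16, 0.12, 0.16, 0.18 and 0.17 without WT replicate 1, and 0.16, 0.11, 0.16, 0.18 and 0.17 without Tg-ACE replicate 1. Without WT replicate 2 the medians were 0.06, 0.03, 0.04, 0.05 and 0.04, and without Tg-ACE replicate 3 0.04, 0.04, 0.04, 0.04 and 0.05. In complex II the median was also 0.00 without Tg-ACE replicate 2. The median standard error of a member was 0.08, as large as the median difference. In bulk RNA fewer cells of a type and less RNA per cell cannot be told apart.

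Atp5g2 had the largest difference by genotype and the smallest adjusted p. It stood at 13.7, 18.9 and 20.4 CPM in WT and 18.8, 24.3 and 27 in Tg-ACE, higher within each code though the groups overlap, a log2 fold change of 0.41 (SE 0.08, adjusted p = 0.468 in edgeR). Cycs, which carries electrons from complex III to IV and triggers apoptosis when released, stood at 25.9, 32 and 31.5 CPM in WT and 32, 34.1 and 38.4 in Tg-ACE (0.23, SE 0.07, adjusted p = 0.761). Atp5d, the delta subunit of the F1 head, had 106, 96.1 and 98.4 CPM in WT and 107, 118 and 122 in Tg-ACE (0.21, SE 0.08). Cycs, Atp5d and the complex I subunit Ndufb5 were the 3 members in which every Tg-ACE library lay above every WT library, a pattern seen in 2.38% of all genes. In 0 of the 80 did all Tg-ACE libraries lie below WT, against 2.53% of all genes.

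Among members of at least 5 CPM, the other extremes by genotype were Ndufb10 (0.18, SE 0.07) and Ndufs4 (-0.06, SE 0.07) in complex I, Sdhc (0.09, SE 0.07) and Sdhb (0.00, SE 0.08) in complex II, Uqcrh (0.18, SE 0.10) and Cyc1 (0.02, SE 0.07) in complex III, Cox6b1 (0.16, SE 0.08) and Cox6c (0.02, SE 0.07) in complex IV, and Atp5sl (-0.05, SE 0.07) in complex V. Below 5 CPM, Cox6a2 of complex IV had the lowest difference of all members (-0.37, SE 0.31). Atp5sl carries an ATP synthase symbol but is named Dmac2 in the annotation and is known for complex I assembly. For Sdhb, Cyc1 and Cox6c the sign of the difference changed when a single library was left out.

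Between experiment codes the members differed far more. Of the 80, 32 rose in Exp-156b (40%) and 1 fell (1.25%), against 20.0% of all genes that rose and 22.9% that fell (42.9% in either direction, edgeR, adjusted p under 0.05). Every Exp-156b library lay above both Exp-156 libraries in 46 of the 80, a pattern found in 28.9% of all genes. By complex, 17 of 36 rose in complex I, 0 of 4 in complex II, 5 of 9 in complex III, 6 of 13 in complex IV and 3 of 17 in complex V, as did Cycs. Median log2 fold changes were 0.24, 0.12, 0.23, 0.23 and 0.09 in complexes I to V. The difference between complexes was not tested.

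These counts depended on which Exp-156 library was kept. With Tg-ACE replicate 1 left out, the code difference is read within WT alone, and with WT replicate 1 left out, within Tg-ACE alone. The contrast between these removals is therefore the genotype by code difference tested below, not the weight of a single library. Without Tg-ACE replicate 1, 8 members rose (10%, against 11.1% of all genes in that fit) and 1 fell, with 4 in complex I, 2 in III, 1 in IV and 1 in V, and the medians of complexes I to V were 0.09, 0.03, 0.11, 0.10 and -0.03. Without WT replicate 1, 39 members rose (48.8%, against 11.4%) and the medians of complexes I, II, IV and V were 0.40, 0.21, 0.35 and 0.19. Leaving out each of the other libraries in turn left between 22 and 30 members that rose (27.2% to 37%, against 16.2% to 18% of all genes). The members that rose under every removal, those of Exp-156 libraries included, were Ndufa12, Ndufb4, Ndufa5, Ndufa10, Cyc1, Uqcrq, Cox7a2l and Atp5g2. The share of all genes that did so was not counted.

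**Figure D2:**
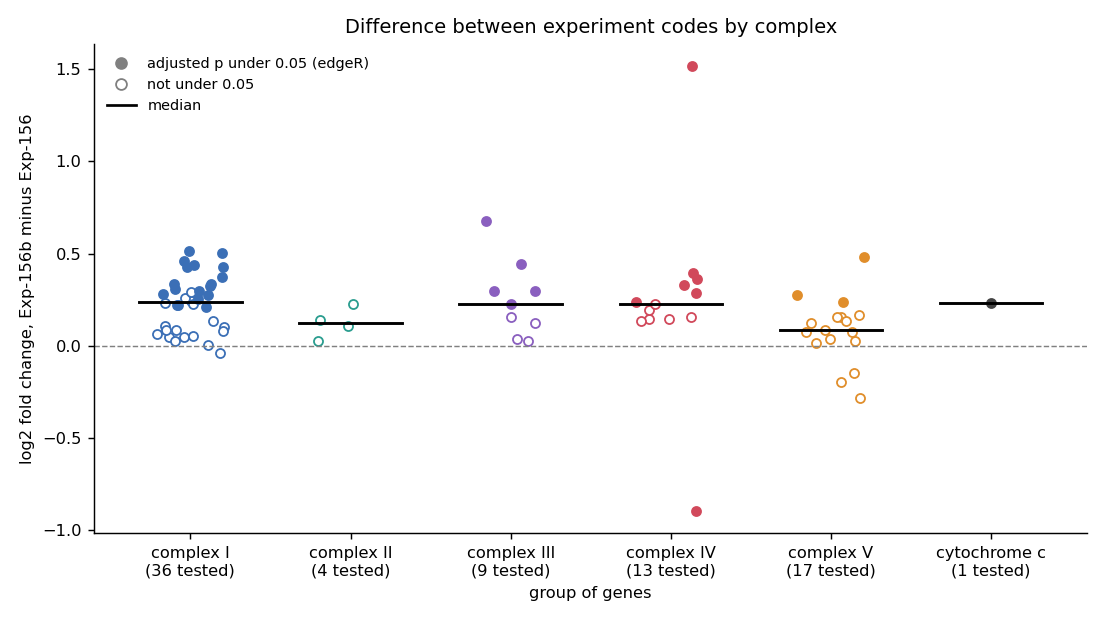
Log2 fold change between codes (Exp-156b minus Exp-156) for each of the 80 tested members by complex, filled where the adjusted p is under 0.05, with the median of each complex as a black line. Complexes I, III and IV have medians of 0.23 to 0.24, while complex V lies around 0.09 and no gene of complex II is filled.

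In complex I, 6 core subunits, of the conserved part that carries out electron transfer, rose between codes, as did 11 of the 29 tested accessory subunits. Ndufs1, the largest iron-sulphur subunit, stood at 77.4 CPM (WT) and 73.3 (Tg-ACE) in Exp-156 and at 86.2, 89.6, 89.1 and 83.5 in Exp-156b (WT, then Tg-ACE), a log2 fold change of 0.21 (adjusted p = 0.0356). Ndufs7, at the end of the iron-sulphur chain, stood at 41.7 and 37.4 CPM in Exp-156 against 44.3, 46.3, 49.6 and 52.9 in Exp-156b (0.28, adjusted p = 0.0385). The codes do not overlap for either gene. Ndufs1 lost the call when a single library was removed, with an adjusted p of 0.0961 for WT replicate 1, 0.0828 for WT replicate 3, 0.171 for Tg-ACE replicate 1 and 0.0822 for Tg-ACE replicate 2. So did Ndufs7, with 0.0607 for WT replicate 3, 0.38 for Tg-ACE replicate 1, 0.07 for Tg-ACE replicate 2 and 0.064 for Tg-ACE replicate 3. Ndufs8 (0.30, adjusted p = 0.0475 in edgeR) rose too and lost the call on removal of any of 4 libraries. Ndufs3 (0.31), Ndufv1 (0.32), which binds NADH, and Ndufv2 (0.25) were the other core subunits that rose. Without Tg-ACE replicate 1 none of these 6 passed.

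The accessory subunit Ndufa12 (chr10:94198720-94221443, plus strand) had the smallest p of all members. It stood at 27.8 CPM in WT and 26.2 in Tg-ACE of Exp-156 and at 38.1, 36, 38.2 and 40.7 in Exp-156b, a log2 fold change of 0.50 (SE 0.08, adjusted p = 0.00189). Exp-156b was also higher in all its libraries for Ndufb4, at 37 and 38.7 against 47.7, 50.9, 52.4 and 57.2 CPM (0.46, SE 0.07, adjusted p = 0.00231), and for Ndufa10, at 56.9 and 61.4 against 73.5, 73.3, 78.9 and 80.3 CPM (0.37, SE 0.06, adjusted p = 0.00262). All 3 genes are accessory subunits, and their WT and Tg-ACE libraries of Exp-156 lay close together. Ndufb9 had the largest log2 fold change of complex I, 0.51, with 49.9 and 46 CPM against 60.6, 64.7, 69.1 and 80.3 (adjusted p = 0.00707, or 0.0908 without Tg-ACE replicate 1). Ndufv3 had the lowest, -0.04 (SE 0.09).

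In complex II no gene passed, and 1 of 4 (Sdhb) had an unadjusted p under 0.05, against 51.5% of all genes. Sdha, the flavoprotein that oxidises succinate, stood at 189.8, 193 and 187 CPM in WT and 187, 202 and 186 in Tg-ACE, a log2 fold change between codes of 0.03 (SE 0.07). Sdhb, the iron-sulphur subunit, stood at 105 and 90.2 CPM in Exp-156 against 113, 107, 117 and 119.5 in Exp-156b (0.23, SE 0.09, adjusted p = 0.0687), and its adjusted p was 0.0215 without WT replicate 1. The membrane anchors Sdhc, at 87.8 and 86.3 against 89.8, 88, 94.2 and 103 CPM (0.11, SE 0.07), and Sdhd (0.14, SE 0.07) did not pass either.

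In complex III the genes that rose were Uqcrq, Cyc1, Uqcrb, Uqcr10 and Uqcrc2. Uqcr10 passed narrowly (0.30, adjusted p = 0.0466 in edgeR) and lost the call on removal of any of 4 libraries. Uqcrq, a small accessory subunit, had the largest log2 fold change at 0.67 (SE 0.11, adjusted p = 0.00222), with 54.3 and 50.6 CPM in Exp-156 and 72.7, 77.6, 88.5 and 98.7 in Exp-156b. Cyc1, the haem-bearing subunit that passes electrons to cytochrome c, stood at 62.7 and 57.1 against 79.1, 78.4, 83.1 and 85.4 CPM (0.44, SE 0.08, adjusted p = 0.00287). Both held when any single library was left out. Of the core proteins, Uqcrc2 stood at 82 and 87.1 against 98.8, 98.8, 97.8 and 101 CPM (0.23, adjusted p = 0.0214), and Uqcrc1 at 128 and 120.2 against 129, 128, 139.9 and 146 CPM (0.12, SE 0.08). Removal of WT replicate 1, WT replicate 3 or Tg-ACE replicate 1 brought the adjusted p of Uqcrc2 to 0.129, 0.0504 and 0.0541. The Rieske protein Uqcrfs1 stood at 78.1 and 75.3 against 81.9, 85.1, 88.6 and 86.4 CPM (0.16, SE 0.07), and the lowest difference was that of Uqcrh, the hinge protein (0.03, SE 0.11). Cycs passed narrowly between codes (0.23, SE 0.08, adjusted p = 0.0444), and its codes overlap. It kept that call without Tg-ACE replicate 2 and lost it on removal of each other library, with adjusted p from 0.0718 to 0.254.

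Complex IV held the member with the largest rise (Cox6a2) and the single one that fell (Cox7a1), both at about 1 CPM. Cox4i1 stood at 279 and 253 CPM in Exp-156 against 319, 339.5, 359 and 389 in Exp-156b (0.40, SE 0.09, adjusted p = 0.0114, or 0.125 without Tg-ACE replicate 1). Cox5a, at 102 and 94.7 against 119.8, 117, 126 and 132 CPM, rose too (0.33, SE 0.07, adjusted p = 0.0097, or 0.0991 without Tg-ACE replicate 1), while Cox5b, at 104 and 93.6 CPM in Exp-156 and up to 124 in Exp-156b, did not pass (0.16, SE 0.10). Cox7a2l (0.36, SE 0.07, adjusted p = 0.00386) reached no more than 164 CPM in Exp-156 and stood at 193, 190.1, 220.5 and 218 CPM in Exp-156b. Cox7a2 (0.29) and Cox8a (0.24) also rose. Cox8a passed narrowly (adjusted p = 0.0496 in edgeR) and lost the call on removal of any of 4 libraries. Among the widely expressed isoforms that did not pass were Cox6a1 (0.15, SE 0.09), Cox6b1 (0.19, SE 0.09), Cox7b (0.15, SE 0.08) and Cox6c (0.13, SE 0.07), the lowest of the complex above 5 CPM.

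The muscle isoforms moved in opposite directions. Cox7a1 (chr7:30184144-30186078, plus strand) stood at 1.76 CPM in both Exp-156 libraries and at 0.994, 0.755, 0.996 and 1.03 in Exp-156b, and fell by 0.90 on the log2 scale (SE 0.26, adjusted p = 0.0273). It kept that call without WT replicate 2 and lost it on removal of each other library (adjusted p from 0.0501 to 0.178) and with DESeq2 (adjusted p = 0.0812). Cox6a2 (chr7:128205435-128206387, minus strand) stood at 0.859 and 0.387 CPM in Exp-156 against 1.7, 1.91, 1.39 and 1.93 in Exp-156b and rose by 1.52 (SE 0.35, adjusted p = 0.0111, or 0.113 without Tg-ACE replicate 1). The annotation places Itgad over Cox6a2 on the other strand, and Itgad was counted at no more than 0.206 CPM in any library. The testis isoform Cox6b2, whose counts are given above, passed the filter on low counts only in the 4 fits that left out a library of Exp-156b. It passed there through the Exp-156 libraries, in which it is high, so its fall in those fits is not counted as a result.

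Complex V had the lowest median between codes. None of the 5 subunits of the F1 head, which holds the catalytic sites, passed between codes, and 1 (Atp5a1) had an unadjusted p under 0.05, where 51.5% of all genes did. Atp5a1, the alpha subunit, stood at 463 and 481 CPM in Exp-156 against 499, 506, 539 and 561 in Exp-156b (0.16, SE 0.07), Atp5b at 521 and 531 against 546, 563, 598 and 600.2 CPM (0.13, SE 0.07), and Atp5c1, the rotating gamma shaft, between 155 and 164 CPM in all libraries (0.02, SE 0.06). Atp5a1 and Atp5b did not overlap between codes, but their differences did not pass. Outside the head 3 of 12 genes rose: Atp5o, the link between head and stalk (0.24, adjusted p = 0.0432), Atp5l (0.27, adjusted p = 0.0467) and Atp5g2. With any one of WT replicate 3 and Tg-ACE replicates 2 and 3 removed, 1 gene of complex V passed (Atp5g2), and with Tg-ACE replicate 1 removed Atp5g2 rose and Atp5f1 fell.

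The c ring genes of complex V differed among themselves. Atp5g2 (chr15:102662864-102672352, minus strand) rose by 0.48 between codes (SE 0.09, adjusted p = 0.00376), while the more abundant Atp5g3, at 109 and 104 CPM in Exp-156 against 107, 108, 117 and 116 in Exp-156b (0.07, SE 0.07), and Atp5g1, at 63.1 and 58.6 against 55.8, 65.3, 65.1 and 70.9 (0.08, SE 0.10), did not pass. Whether Atp5g2 differed from its relatives was not tested. Its counts were fractional in all 6 libraries, as were those of Cycs and Cox4i1, which marks reads divided between similar or overlapping loci. Atp5f1, a subunit of the outer stalk, had the lowest value above 5 CPM and the only negative one near the threshold: 148 and 135 CPM in Exp-156 and 123, 116, 125 and 129 in Exp-156b, a log2 fold change of -0.20 (SE 0.07, adjusted p = 0.0642, or 0.0422 without Tg-ACE replicate 1). Its codes do not overlap.

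The genotype difference went in opposite directions in the 2 codes. Within Exp-156 (1 library each), Tg-ACE lay below WT in 63 of 80 members with a median log2 fold change of -0.09. Within Exp-156b (2 libraries each), Tg-ACE lay above WT in 76 of 80 with a median of 0.16. Medians in complexes I to V were -0.10, -0.04, -0.10, -0.10 and -0.04 in Exp-156 and 0.16, 0.12, 0.16, 0.18 and 0.17 in Exp-156b, so that the median of each complex changed sign. The change was not particular to these genes. Cytosolic ribosomal proteins had medians of -0.09 and 0.12, mitochondrial ribosomal proteins -0.02 and 0.12, and chain genes encoded in mitochondrial DNA -0.14 and 0.12. The median of all genes was -0.01 in both codes. With lone libraries in Exp-156, the SE of a difference there takes its spread from Exp-156b and assumes that the lone libraries vary alike. No member passed within Exp-156b after adjustment (2 of all genes, 0.0156%; smallest member adjusted p = 0.457, edgeR), but 32 had an unadjusted p under 0.05, all higher in Tg-ACE (40%, against 5.08% of all genes higher). That number was 12 when WT replicate 2 was left out and 14 when Tg-ACE replicate 3 was.

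Within Exp-156b the members with the smallest p were in complex V. Atp5k, a small membrane subunit of ATP synthase, had 47.7 and 49.9 CPM in WT and 60.3 and 66.2 in Tg-ACE of Exp-156b (log2 fold change 0.37, SE 0.08) and 49.8 and 49.7 CPM in Exp-156 (0.00). Atp5d differed by 0.30 (SE 0.06) within Exp-156b and by 0.01 (SE 0.09) within Exp-156. In complex I the largest difference was that of Ndufa2, with 55 and 60.5 against 70.7 and 76.6 CPM in Exp-156b (0.35, SE 0.08) and 58.8 against 49.9 CPM in Exp-156 (-0.24, SE 0.12). Atp5g2 and Cycs had the largest positive differences within Exp-156 and were higher in Tg-ACE in both codes (0.45 and 0.39 for Atp5g2, 0.30 and 0.19 for Cycs).

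The test of whether the genotype difference itself differed between codes gave no adjusted p under 0.05 for any member or any gene (0%), with the smallest member adjusted p at 0.646 in edgeR and 2 residual degrees of freedom. At an unadjusted p under 0.05, 23 members had a larger difference in Exp-156b (28.7%, against 4.15% of all genes) and 0 a smaller one. DESeq2 gave 0 members and 13 genes for the same difference. The codes share no library, and the comparison rests on 1 library per genotype in Exp-156.

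**Figure D3:**
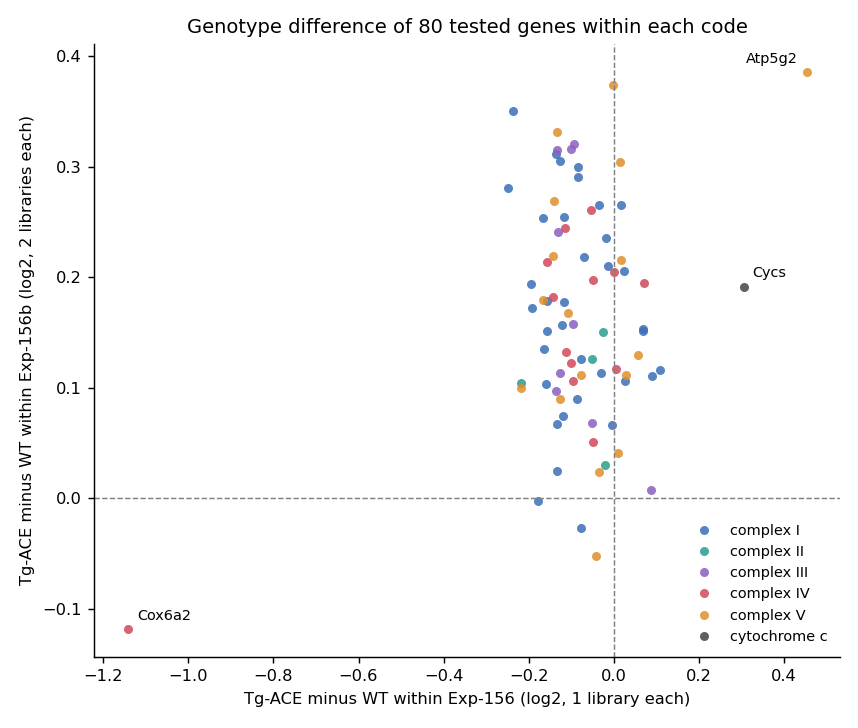
Genotype difference (log2, Tg-ACE minus WT) within Exp-156 on the x axis and within Exp-156b on the y axis for the 80 tested members, coloured by complex. Most points lie left of 0 and above 0, and Atp5g2 and Cycs lie on the positive side of both axes, while Cox6a2 (below 2 CPM) lies on the negative side of both.

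By library, the median member lay below its mean over the 6 libraries by 0.10 in WT replicate 1 and by 0.15 in Tg-ACE replicate 1, at -0.03 and 0.00 in WT replicates 2 and 3, and at 0.12 and 0.21 in Tg-ACE replicates 2 and 3. Complexes I, III and IV spread over the widest range, complex I from -0.21 to 0.22 and complex IV from -0.19 to 0.21, and complexes II and V over a narrower one, from -0.10 to 0.11 and from -0.09 to 0.14. Ribosomal protein genes had the same lowest and highest library. The 80 tested cytosolic ribosomal proteins, which are no part of the chain, ran from -0.20 in Tg-ACE replicate 1 to 0.20 in Tg-ACE replicate 3, and the 77 mitochondrial ones, which translate the subunits encoded in mitochondrial DNA, from -0.14 to 0.14. Between codes 34 of the 80 cytosolic ones rose (42.5%) and 1 fell (1.25%), with a median of 0.23. Of the 77 mitochondrial ones 28 rose (36.4%) and 1 fell (1.3%), with a median of 0.18. Among all genes 20.0% rose and 22.9% fell.

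**Figure D4:**
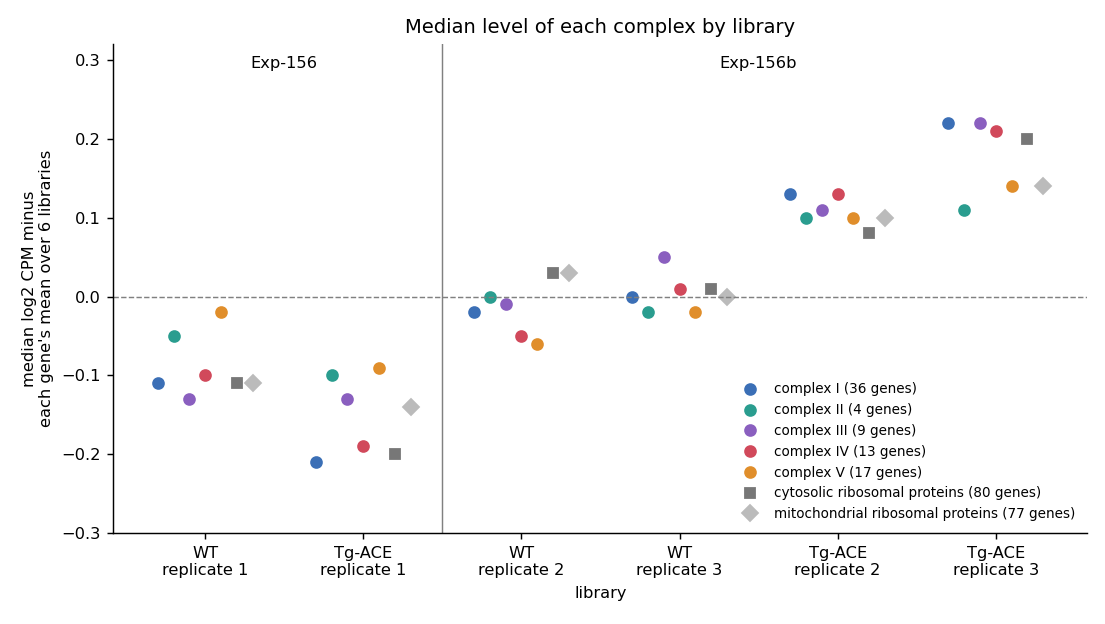
Median log2 CPM of each complex in each library, as the difference from each gene's own mean over the 6 libraries, with cytosolic and mitochondrial ribosomal proteins in grey. Complex I runs from -0.21 in Tg-ACE replicate 1 to 0.22 in Tg-ACE replicate 3, and the ribosomal proteins follow the same order of the lowest and the highest library.

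Most members have short transcripts. Their median is 737 bases over the 80, against 2737 over all tested genes, while Sdha (2900), Sdhc (3171) and Cycs (3123) lie above the latter. Within Exp-156b the genotype difference was larger in short transcripts. The 45 members under 800 bases had a median log2 fold change of 0.20 (44 above 0) and the 35 longer ones 0.12 (32 above 0), beside 0.12 and -0.01 for all short and all longer genes. Within Exp-156 the short members had a median of -0.11 and the longer ones -0.05, beside -0.07 and 0.00 for all short and all longer genes. Spearman's rho between transcript length and the difference within Exp-156b was -0.443 across the 80 members and -0.321 across 12801 genes, which share libraries and are not independent. Between codes it was -0.0619 and -0.0319. With the share of G and C bases in the transcript, rho within Exp-156b was 0.372 across the members and 0.332 across the genes. The parts of transcript length and base content in these differences were not tested.

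**Figure D5:**
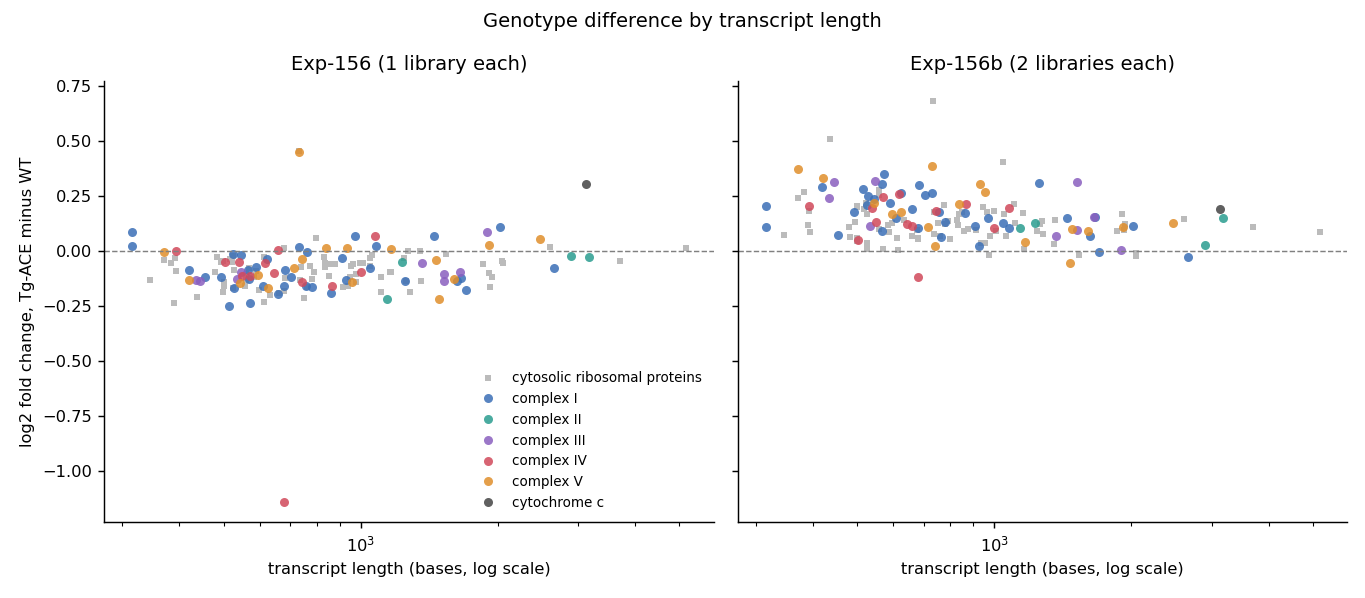
Genotype difference (log2, Tg-ACE minus WT) by transcript length in bases (log axis), within Exp-156 and within Exp-156b, for the members coloured by complex and cytosolic ribosomal proteins in grey. Members under 800 bases have a median of 0.20 in Exp-156b and of -0.11 in Exp-156.

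Genes that build the complexes are given beside the subunits. Of 50 assembly factors, 49 were tested (Pet117 had no count), and between codes 7 rose (14.3%, against 20.0% of all genes) and 2 fell (4.08%, against 22.9%), with a median of 0.05. Whether they differ from the subunits was not tested. Ndufaf4, which helps to build complex I, rose from 6.91 and 7.45 CPM in Exp-156 to 12.9, 14.2, 12.3 and 12.6 in Exp-156b (0.85, SE 0.12, adjusted p = 0.00118). Coa7, a factor for complex IV (0.57), and Foxred1, for complex I (0.37), rose too. Tmem126b, another complex I factor, fell from 24.5 and 22.4 CPM to 16.8, 14, 15.3 and 18.4 and Cmc2, a complex IV factor, from 9.74 and 9.32 to 6.21, 4.73, 6.41 and 6.82. By genotype 0 of the 49 passed in edgeR, and 2 had an unadjusted p under 0.05.

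Among 18 regulators of respiratory chain genes, 17 were tested (Ppara was at or under the limit of 3 counts), and between codes 3 rose (17.6%) and 5 fell (29.4%), beside 20.0% and 22.9% of all genes. The coactivators Pprc1 (0.62) and Ppargc1a (1.07) and the nuclear receptor Ppard (0.67) rose. Ppargc1a, known as a driver of mitochondrial biogenesis, was low, at 1.31 and 2.04 CPM in Exp-156 and 2.66, 3.22, 5.06 and 3.08 in Exp-156b. The 5 that fell were Nrf1, from 25.9 and 26.9 CPM to 21.1, 20.3, 22.1 and 21.3 (-0.32, adjusted p = 0.00908), Yy1, by 0.38, Gabpa, by 0.29, Gabpb2 (-0.42) and Myc (-1.03). No regulator passed by genotype in edgeR, and 1 had an unadjusted p under 0.05. Of 5 further chain genes that the symbol rule does not take, Atpif1, the ATP synthase inhibitor (0.39), and Usmg5, a small ATP synthase subunit (0.31), rose between codes and none passed by genotype.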

How the data were processed

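Per the labels' protocols, RNA was isolated with a PureLink kit, made into libraries with the TruSeq Stranded mRNA kit and sequenced on a NextSeq 500. What the authors deposited is a single gene table of expected counts, not normalized; 11% to 11.4% of a library's values were not whole, and rounding to whole counts came first. The submitters' processing notes name STAR 2.5.0, RSEM 1.2.25, mm10 and GRCh38 without their roles, and whether reads were counted by strand is not stated there. Expected counts split reads between similar or overlapping loci: 18 members had a fractional count in at least 1 library. An annotated gene overlaps 29 members on the other strand and 12 on the same strand. The table's 92 spike-in rows summed to 1 count and were left out, and 0 columns belonged to samples outside the labels.

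Members and lists were chosen with earlier results of these data known. The test was edgeR 4.0.16 (R 4.3.3) quasi-likelihood with TMM factors, filterByExpr, experiment code and genotype as terms and Benjamini-Hochberg adjustment at 0.05 over 12827 genes. The common biological coefficient of variation was 0.108 with the code and 0.31 without it. Within-code differences and their difference came from a fit with 1 mean per genotype and code. SE is the log2 fold change over the square root of F. CPM values use TMM-scaled totals, and log2 CPM a prior count of 2. Lengths are medians of curated transcripts in GENCODE vM21, which held all 86 member identifiers. The scripts were tested on simulated data.

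Named members were core subunits by role, isoform families, the highest and lowest difference per complex among members of at least 5 CPM, and the 5 smallest p. The values of 1 member are not reported here. Further genes named (among them Ndufs3, Ndufa5, Atp5k, Ndufa2, Nrf1 and Gabpa) were chosen after their values were seen. No pair of the 15 was identical, with a mean chi-square per gene of at least 10.8. Same-numbered libraries correlated in their deviations from group means (0.856, 0.483 and 0.637), as did crossed pairs (0.539 and 0.615). With the code removed, same-numbered pairs of replicates 2 and 3 gave -0.178 and -0.101. Same-numbered correlations from group means were above 0.1, but crossed pairs correlated too, and what they share cannot be told apart from the code. The main fit held no pairs, and a replicate block was run as an alternative. Alternatives were RLE and upper-quartile factors, other filters, DESeq2 1.42.0, limma-voom 3.58.1, a replicate block, genotype alone, Exp-156b alone, another sorting of 4 members and leaving out each library. That sorting counted Ndufa4 with complex IV and left out Atp5s, Atp5sl and Cox7a2l.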

Additional observations from a re-analysis of the deposited data

How the results depend on the processing

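By genotype, 0 members passed under every alternative run, between 63 and 76 lay above 0, and the replicate block gave 0 members and 2 genes and changed no call. Over all genes, 9 passed with no filter, 38 in DESeq2 and 0 with genotype alone, against 2. Within Exp-156b DESeq2 called 31 genes and for the difference between codes 13, and 41 and 14 were called without WT replicate 3. Exp-156b alone gave genotype medians of 0.11 for complex II and 0.17 for V, and with a library left out they ran from 0.00 to 0.12 and from 0.04 to 0.17. Sdhb by genotype turned positive with RLE factors (0.00), DESeq2 (0.00), genotype alone (0.01), upper-quartile factors (0.02) and Exp-156b alone (0.10), and ran from -0.06 to 0.10 with a library left out, Cyc1 from -0.01 to 0.10 and Cox6c from -0.03 to 0.05. Between codes, leaving out a library gave between 9 and 39 members (8 to 39 higher, 7 to 36 outside complex V, 1 to 3 in it), and medians from 0.09 to 0.40 in complex I, 0.03 to 0.21 in II, 0.11 to 0.26 in III, 0.10 to 0.35 in IV and -0.03 to 0.19 in V. All genes called were then as few as 3409 without Tg-ACE replicate 1 and 3448 without WT replicate 1, against 5502. Upper-quartile factors gave medians of 0.20 in complex II and 0.17 in V, 6 called in V, and 58% of all calls higher against 46.5%. Ndufv3 between codes was 0.04 with those factors and ran from -0.19 to 0.10 with a library left out, Sdha from 0.00 to 0.06 and Uqcrh from -0.18 to 0.23. Within Exp-156b, between 12 and 32 members had an unadjusted p under 0.05 with a library left out. The cause of these changes was not tested.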

Other observations

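The 13 chain genes encoded in mitochondrial DNA did not keep to the order of libraries seen for the nuclear ones. Their CPM summed to 14642, 18603 and 29866 in WT replicates 1 to 3 and to 13642, 32952 and 20065 in Tg-ACE replicates 1 to 3, so Tg-ACE replicate 2 was the highest and Tg-ACE replicate 3, the highest library for the nuclear genes, lay near WT replicate 2. Between codes 0 of the 13 fell and 6 rose (46.2%, against 20.0% of all genes), with a median of 0.73. Among these 6 was mt-Co1, the catalytic subunit of complex IV. It rose from 5437 and 5204 CPM in Exp-156 to 8700.2, 12453, 14565 and 8894 in Exp-156b (1.06, SE 0.22, adjusted p = 0.00703 in edgeR). By genotype 0 of the 13 passed, and 0 had an unadjusted p under 0.05. The libraries were poly-A selected, and how far each of these transcripts carries a poly-A tail was not examined.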
